A study of Mus musculus with 30 samples.

Results

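The small RNAs described here came from the imprinted snoRNA genes of mouse chromosome 7, namely Snord116, Snord64 and Snord107. The members were the GENCODE vM21 genes Snord64 and Snord107 and every gene whose symbol begins with Snord115 or Snord116. These came to 19 of the 6112 genes of the small RNA reference, and 17 of them were Snord116 genes (Snord116l1 to Snord116l17). No gene of this reference bears a symbol that begins with Snord115, so 0 members belonged to that family and it was not analysed here under that name. A read was given to a family where its whole sequence was found, in the sense direction and without a mismatch, in a member gene. The members held 1659 of the 307636 distinct sequences that matched the reference.

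The samples were cortex (prefrontal cortex by the study's methods) of C57BL/6J mice of 6 months. The AD mice were hemizygous 5xFAD mice, which carry human amyloid precursor protein and presenilin transgenes with familial mutations under a neuronal promoter, and the WT mice were their littermates, with both sexes in the study. RNA of 15 to 50 nt was cut from a gel and sequenced either directly (traditional-seq, 7 WT and 7 AD libraries) or after treatment with T4PNK and AlkB (PANDORA-seq, 8 WT and 8 AD libraries). T4PNK, a kinase, makes RNA ends fit for ligation, and AlkB removes methyl groups that stop reverse transcription. Whole snoRNAs of the members are 67 to 94 nt long, so every value below is the level of fragments and not of the intact RNA. The labels give replicate numbers only, and p-values measure the spread between these libraries. In each protocol, 14 libraries carry a file-name code that the other protocol also has. The sources do not say if such libraries came from one mouse, and the tests between protocols took all libraries as independent.

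Box C/D snoRNAs are short RNAs of the nucleolus that carry a box C and a box D motif near their ends, often with a second, inner pair, and most guide methylation of ribosomal RNA through the bases before a box D. Those of this locus are expressed from the paternal chromosome, mainly in neurons, and are processed from a long host transcript. Loss of the paternal Snord116 cluster in humans is tied to Prader-Willi syndrome, and Snord116 has no well-established RNA target. Snord64 and Snord107 are single-copy genes of the same locus whose targets are likewise not well known.

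The gene sequences are shown because the read ends fell next to their box motifs. They are those of GENCODE vM21 on GRCm38, read 5′ to 3′ on the minus strand, with TGATGA (box C) and CTGA (box D) in capitals. Both motifs were searched on the gene's own strand only. Of the 1507 snoRNA-type genes of the reference, 26.1% held TGATGA and 79.5% held CTGA, so neither motif is particular to these genes.

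Snord116l1, chr7:59894620-59894713, 94 nt: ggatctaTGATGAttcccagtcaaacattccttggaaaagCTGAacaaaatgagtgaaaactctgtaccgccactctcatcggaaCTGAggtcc

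Snord64, chr7:59978808-59978874, 67 nt: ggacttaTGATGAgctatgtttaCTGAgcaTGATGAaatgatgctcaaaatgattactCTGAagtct

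Snord107, chr7:59980876-59980945, 70 nt: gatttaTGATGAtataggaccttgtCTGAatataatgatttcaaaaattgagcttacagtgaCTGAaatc

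The Snord116 genes lay between chr7:59861731 and 59904848. For 16 of the 17, an annotated Snhg14 transcript spanned the gene, and in each case the gene was inside an intron. Snord64 was inside an exon of 1 of the 3 Gm38393 transcripts that span it and inside an intron of the other 2, and Snord107 was inside an exon of 1 and an intron of 1. The sequence shown is that of 14 of the 17 Snord116 genes, and of 16 unnamed genes of the same locus. Counted from 1 at the 5′ end, and with the common base first, Snord116l9 differs from it by G1A and C16T, Snord116l14 by G83T, and Snord116l12 by C74A, T77A and C81A. As a result, 99.6% of the Snord116 reads of PANDORA-seq could not be told apart from an unnamed gene of the locus, and 0 reads of any family fit a small RNA of the reference outside it. Reads that matched a member exactly on the opposite strand numbered 0. Most reads also matched a longer annotated transcript. These were 99.6% of the Snord116 reads in PANDORA-seq and 99.8% in traditional-seq, and 100% of the Snord64 and Snord107 reads. Only 3 Snord116 reads of PANDORA-seq matched such a transcript outside the locus. Whether reads came from the snoRNA or from a longer transcript was not tested.

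PANDORA-seq libraries held 54926347 to 105876141 reads and traditional-seq libraries 9370669 to 17053412. In PANDORA-seq, reads of 43 to 45 nt made up 15.5% ± 3.19 (SD, n = 8) of the WT libraries and 4.95% ± 2.90 (SD, n = 8) of the AD libraries, and the ranges of 11.2 to 21.5% and 2.13 to 10.7% did not overlap. PANDORA-seq files held no read over 45 nt, and traditional-seq files none over 42 nt. Of 33 marker genes of 7 cell types, 26 were tested in PANDORA-seq and 24 in traditional-seq, and 0 passed edgeR's quasi-likelihood test between genotypes (3 and 2 at an unadjusted p under 0.05, smallest Benjamini-Hochberg adjusted p = 0.126, in PANDORA-seq). In PANDORA-seq the summed level of the cortex neuron markers ranged from 2051 to 6327 RPM (reads scaled to a library total of 1000000) in WT and from 1675 to 6900 RPM in AD, and in traditional-seq from 95436 to 291893 RPM and from 87672 to 206186 RPM. The 3 PANDORA-seq markers with an unadjusted p under 0.05 were 1 each of the neuron, red cell and choroid plexus lists. The 2 such markers of traditional-seq were both of the myeloid list. Its traditional-seq sums were 43.1 to 202 RPM in WT (median 101) and 62.3 to 674 RPM in AD (median 150). In PANDORA-seq the red cell sums were 9.45 to 16.2 RPM in WT and 9.45 to 40.6 RPM in AD, those of choroid plexus and ependyma 50.3 to 123 and 40.99 to 441 RPM, and those of pituitary 6.82 to 32.0 and 6.53 to 144 RPM. The sums of oligodendrocyte markers were 27.5 to 110.2 and 26.5 to 158 RPM, of myeloid markers 5.42 to 19.7 and 5.97 to 21.9 RPM, and of endothelial markers 7.41 to 33.7 and 9.59 to 30.7 RPM. For all 7 lists the ranges of the genotypes overlapped, and their part in the results below was not tested. Read counts carry no molecular identifiers.

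Snord116 had 497300 reads in PANDORA-seq, the most of the members, and 10152 in traditional-seq, where Snord64 had 10481. In PANDORA-seq its level fell in AD mice. WT libraries ranged from 307.1 to 1075 RPM with a median of 505 RPM and a mean of 552 ± 248 (SD, n = 8). AD libraries ranged from 30.8 to 395 RPM with a median of 157 RPM and a mean of 180 ± 115 (SD, n = 8). Of the 8 AD libraries, 7 had less than the lowest WT library, a pattern found in 8 of 1054 features (0.759%), and AD replicate 6 reached into the WT range. That library also had the highest share of 43-to-45-nt reads of the AD group, 10.7%. The log2 fold change of AD against WT was -1.69 with a standard error of 0.32, a level 3.22-fold lower (edgeR quasi-likelihood test, Benjamini-Hochberg adjusted p = 0.00897). Of the 1054 features tested, 6 (0.569%) were lower in AD and 0 were higher, with 129 at an unadjusted p under 0.05. In bulk tissue, fewer cells of a type and less of the RNA in each cell cannot be told apart.

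**Figure D1:**
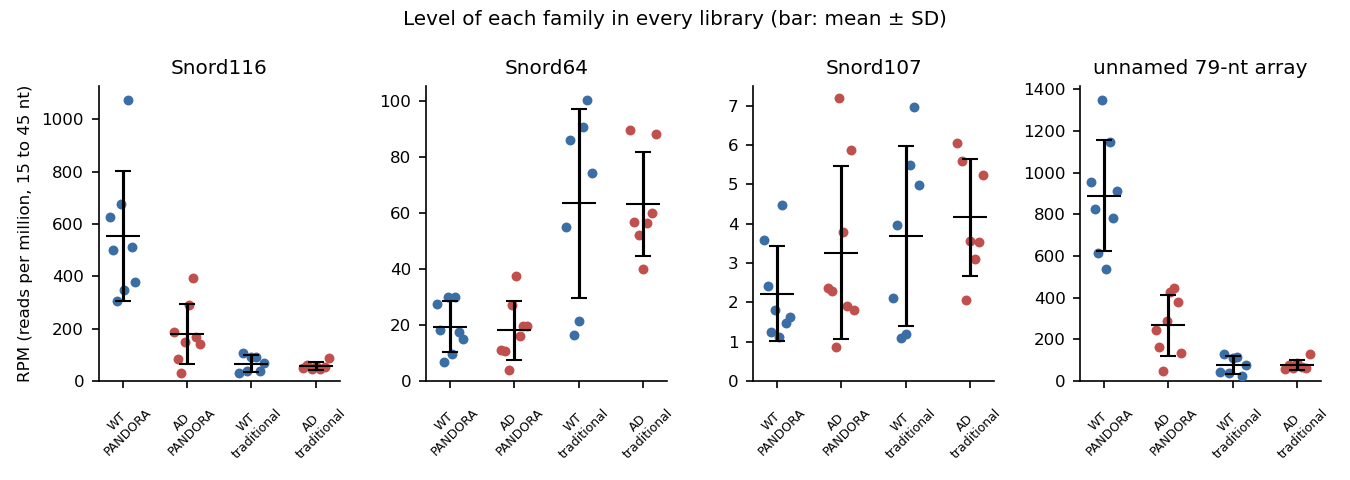
Level of each family in every library, in RPM on a linear axis from 0, for WT (blue) and AD (red) libraries of both protocols; horizontal bars and whiskers are means ± SD. In PANDORA-seq the Snord116 libraries of AD mice lie between 30.8 and 395 RPM and those of WT mice between 307.1 and 1075 RPM, while the Snord64 and Snord107 points of both genotypes share one range.

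The Snord116 call rested on the longest reads and on the scaling. With reads of 15 to 40 nt only, the log2 fold change was 0.08 (edgeR quasi-likelihood test, adjusted p = 0.976), and 0 of 1040 features passed in either direction (76 at an unadjusted p under 0.05). Scaled by library size in place of TMM (a factor per library taken from the bulk of the features), the change was -1.62 but the adjusted p was 0.117. With the sequences shared with any gene outside the family left out, which removes 99.6% of the Snord116 reads, it was -1.12 with an adjusted p of 0.0751.

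Long reads made up most of Snord116 in PANDORA-seq and their share fell in AD. Reads of 41 to 45 nt were 92.6% ± 1.73 (SD, n = 8) of the Snord116 reads in WT, from 89.3 to 94.9%. In AD they were 66.98% ± 17.3 (SD, n = 8), from 45.2 to 89.7%. The difference was -25.7 percentage points (exact permutation test over the libraries, two-sided, p = 0.000311, and 0.00381 after Benjamini-Hochberg adjustment over 502 features). The share of long reads was lower in AD in 163 of these 502 features (32.5%) and higher in 0, so a shorter read profile was not particular to Snord116. For Snord64 the same share was 13.9% ± 7.07 (SD, n = 8) in WT and 9.23% ± 5.26 (SD, n = 8) in AD, with an adjusted p of 0.292 in the exact permutation test.

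**Figure D2:**
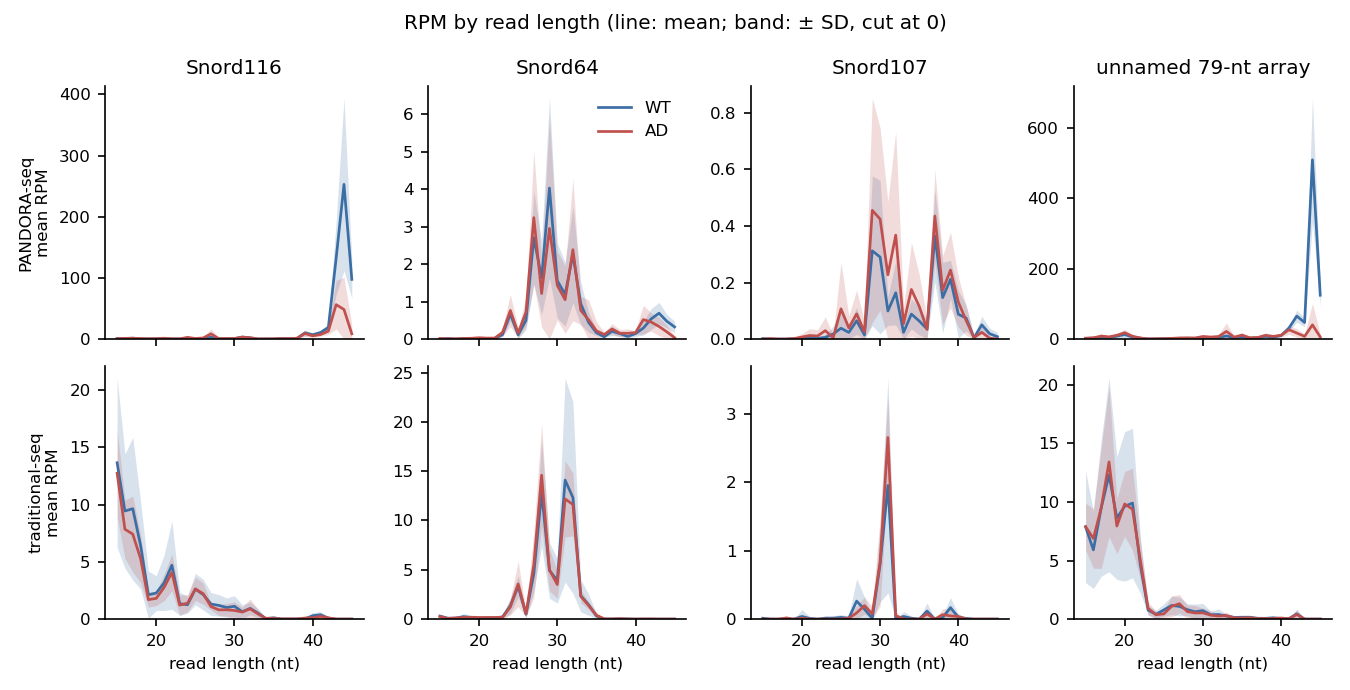
Mean RPM by read length in nt for WT (blue) and AD (red), with a band of ± 1 SD cut at 0, by family and protocol, each panel on its own axis. Snord116 in PANDORA-seq has its peak at 43 to 45 nt and is lower there in AD, and the traditional-seq profile of Snord116 has its maximum at 15 nt.

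Reads of 43 to 45 nt were compared under 3 scalings, since their share of the whole library also differed between genotypes. Scaled by all reads, Snord116 reads of this length had a log2 fold change of -2.09 (edgeR quasi-likelihood test, adjusted p = 0.00356), beside 220 of 313 features that were lower (70.3%) and a median of -1.74 over all features. Scaled by all reads of 43 to 45 nt, the change was -0.65 (edgeR, adjusted p = 0.185) beside a median of -0.28. Scaled by TMM, it was -0.39 (edgeR, adjusted p = 0.386) beside a median of 0.02. Over the 16 libraries, the log2 Snord116 level and the library's share of 43-to-45-nt reads had a Pearson r of 0.856 and a Spearman rho of 0.871, and both measures come from the same library. Within WT the r was 0.553 and the rho 0.310 (n = 8), and within AD they were 0.769 and 0.905 (n = 8). Over the same 16 libraries, the level of Snord116 reads of 15 to 40 nt had an r of -0.08 with that share. How far the library's length composition accounts for the Snord116 difference was not tested.

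The long Snord116 reads of PANDORA-seq were mainly 5′-side reads that ended just past the inner CTGA and 3′-side reads that began after it. Some sequences ran across it, such as nt 28 to 72. The files hold no read over 45 nt, so the ends of longer fragments were not seen. The most frequent sequence of each side is shown with the motifs in capitals.

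Snord116 nt 2 to 45, 44 nt: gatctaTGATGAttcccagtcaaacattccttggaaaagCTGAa

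Snord116 nt 46 to 90, 45 nt: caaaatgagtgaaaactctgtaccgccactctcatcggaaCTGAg

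The fragment of nt 2 to 45 was the leading Snord116 sequence of PANDORA-seq. It ranged from 101 to 505 RPM in WT, with a mean of 226 ± 132 (SD, n = 8), and from 2.04 to 134 RPM in AD, with a mean of 44.04 ± 47.6 (SD, n = 8). Its log2 fold change was -2.44 with a standard error of 0.59 (edgeR quasi-likelihood test, adjusted p = 0.0158). The fragment of nt 46 to 90 had 30.01 to 82.1 RPM in WT and 0.283 to 15.1 RPM in AD. Its log2 fold change was -4.25 with a standard error of 0.68 (edgeR, adjusted p = 0.000432). A lower level in AD was common at this length, called in 825 of 1805 sequences of 43 to 45 nt (45.7%). Among the other leading sequences, nt 2 to 46 was lower in AD (-3.34, edgeR adjusted p = 0.00346). The 43-nt sequences of nt 2 to 44 (-1.18, edgeR adjusted p = 0.193) and nt 3 to 45 (-1.37, edgeR adjusted p = 0.0734) did not pass. The smallest p among all fragments of the family belonged to nt 45 to 88, at -5.93 (edgeR adjusted p = 1.34e-06). That sequence was rare, at 0.273 ± 0.0514 RPM in WT and 0.00270 ± 0.00505 RPM in AD (SD), and near the floor in AD.

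Of the 1089 distinct Snord116 sequences of PANDORA-seq, 104 passed the filter on low counts. Of these, 26 were lower in AD and 0 higher, against 936 of 19767 sequences of the whole reference that were lower (4.74%) and 32 that were higher (0.162%) by edgeR, at an adjusted p below 0.05 with more than a 2-fold difference. The calls gathered at the upper end of the length range. At 43 to 45 nt, 19 of 31 were lower with a median log2 fold change of -2.78, beside 825 of 1805 sequences of that length (45.7%) over the whole reference. At 41 to 42 nt, 4 of 24 were lower with a median of -0.90, beside 59 of 1611 sequences of that length (3.66%). At 15 to 40 nt, 3 of 49 were lower with a median of 0.03, beside 0.318% lower and 0.196% higher over the whole reference. These 3 were nt 48 to 87, nt 6 to 45 and nt 76 to 90, named after their values were seen. At 15 to 40 nt the count was 1 of 253 with every sequence of at least 10 reads tested (0.143% lower over the whole reference), and 2 of 49 with library size in place of TMM (0.177% lower). A sequence can pass the filter on low counts through the WT libraries alone. With every sequence of at least 10 reads tested, 29 of 84 were lower at 43 to 45 nt (34.5%). Their median was -2.30, beside 2285 of 8651 lower (26.4%) over the whole reference.

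**Figure D3:**
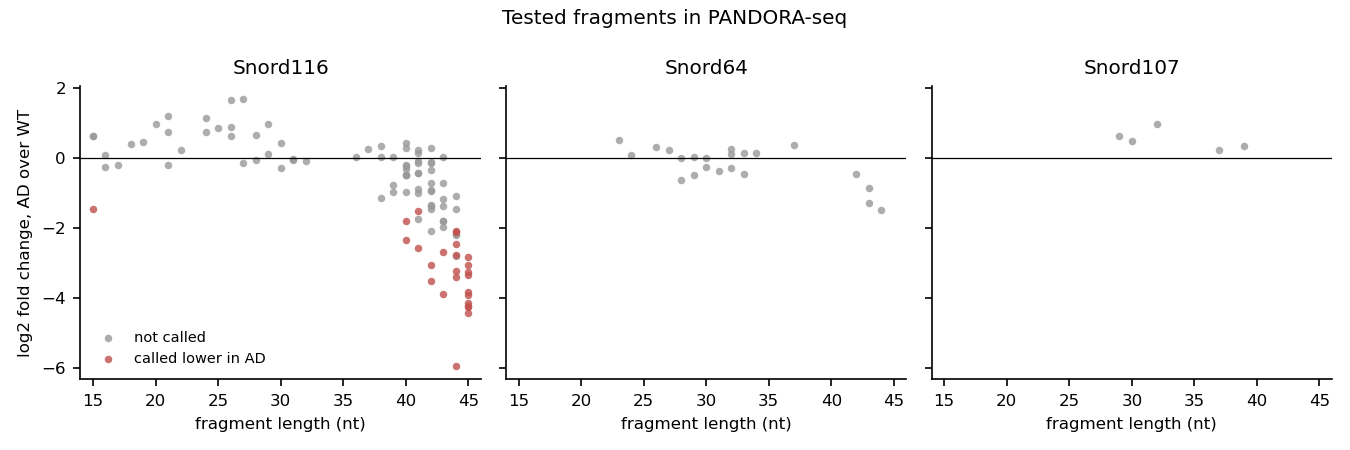
Log2 fold change of AD against WT (positive: higher in AD) of every tested fragment in PANDORA-seq by its length in nt, on one vertical axis for the 3 families; red points had an adjusted p below 0.05 with more than a 2-fold difference. The 26 red points are all of Snord116, and 19 of them are 43 to 45 nt long.

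Among long reads with the ends given here, the 3′ side was lower in AD by more than the 5′ side. This comparison was set up after the values were seen and has no test. Reads of the 5′ side (start at nt 1 to 6, end at nt 43 to 47) ranged from 213 to 833 RPM in WT and from 7.83 to 294 RPM in AD, with means of 400 ± 202 and 107 ± 93.1 (SD, n = 8 each). Reads of the 3′ side (start at nt 44 to 49, end at nt 88 to 92) ranged from 57.9 to 156 RPM in WT and from 0.710 to 40.6 RPM in AD, with means of 79.8 ± 32.4 and 9.86 ± 12.9 (SD, n = 8 each). The ratio of 5′-side to 3′-side reads was 4.90 ± 0.984 in WT, from 3.48 to 6.22, and 13.7 ± 4.16 in AD, from 7.23 to 19.2. At equal read length, the mean WT level was 5.14 times the AD level for the 44-nt reads of nt 2 to 45 and 8.16 times for those of nt 47 to 90. At 45 nt it was 8.94 times for nt 2 to 46 and 16.4 times for nt 46 to 90. At 43 nt it was 2.49 times for nt 3 to 45 and 13.6 times for nt 46 to 88. The ratio of 5′-side to 3′-side reads of Snord64 was 2.64 ± 0.743 in WT and 2.60 ± 0.755 in AD (SD, n = 8 each). Its 5′-side reads started at nt 1 to 6 and ended at nt 26 to 33, and its 3′-side reads started at nt 29 to 36 and ended at nt 60 to 67. These are shorter reads, within the 15 to 40 nt over which the Snord116 log2 fold change was 0.08. At 43 nt, log2 fold changes of tested 3′ sequences of Snord116 ran from -3.89 (nt 46 to 88) to 0.03 (nt 51 to 93). That of nt 3 to 45 was -1.37. At 44 nt, 3′ sequences ran from -5.93 (nt 45 to 88) to -1.10 (nt 50 to 93). Those of nt 2 to 45 and nt 3 to 46 were -2.44 and -2.10. At 45 nt, 3′ sequences ran from -4.42 (nt 47 to 91) to -2.83 (nt 49 to 93). Those of nt 2 to 46 and nt 3 to 47 were -3.34 and -3.07. At each of these lengths, some 3′ sequences fell less than a 5′ sequence. Over all Snord116 reads of 15 to 45 nt the shares moved the other way. Reads starting within 5 nt of the first base were 71.6% in WT and 52.5% in AD. Reads ending within 5 nt of the last base were 22.6% ± 2.94 and 40.2% ± 16.4 (SD, n = 8 each).

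Only reads over a variant base separate the Snord116 genes. Those of Snord116l14 numbered 1618 in PANDORA-seq, with 1.22 to 2.67 RPM in WT and 0.200 to 1.43 RPM in AD, and 7 of the 8 AD values were under the lowest WT value. Those of Snord116l9 numbered 328, with 0.383 ± 0.176 RPM in WT and 0.103 ± 0.121 RPM in AD (SD, n = 8 each), and 6 of the 8 AD values were under the lowest WT value. Those of Snord116l12 numbered 51, too few to compare. No test was run on these single genes, and the other 14 share all their reads. The Snord116l14 reads cover nt 83, in the 3′ part, and the Snord116l9 reads cover nt 1 or nt 16, in the 5′ part. Their mean WT levels were 1.89 and 3.73 times the AD levels. How many features this rare had 6 or 7 AD values under the lowest WT value was not counted.

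Snord64 did not differ detectably between genotypes in PANDORA-seq. WT libraries ranged from 6.75 to 30.2 RPM with a median of 17.9, and AD libraries from 3.75 to 37.7 RPM with a median of 17.7, so the AD range covered the WT range. The log2 fold change was -0.16 with a standard error of 0.31 (edgeR quasi-likelihood test, adjusted p = 0.863). Of its 279 distinct sequences 22 were tested and 0 passed by edgeR, with 2 at an unadjusted p under 0.05, and its 3 sequences of 43 to 45 nt had log2 fold changes from -1.48 to -0.86. For reads of 43 to 45 nt scaled by all reads, Snord64 was lower in AD (-1.40, edgeR adjusted p = 0.0369), and scaled by the reads of that length it was not (0.18, edgeR adjusted p = 0.767). The share of 43-to-45-nt reads in Snord64 was 9.20% ± 5.28 in WT and 3.36% ± 3.17 in AD (SD, n = 8 each), with an adjusted p of 0.0241 in the exact permutation test, beside 231 of 502 features with a lower share (46%). Blocked by replicate number, the adjusted p of Snord64 was 0.0900 in the sign-flip permutation test and 182 features had a lower share.

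Snord107 was the member with the fewest reads, 3632 in PANDORA-seq and 639 in traditional-seq. In PANDORA-seq it ranged from 1.13 to 4.46 RPM in WT, with a median of 1.71, and from 0.874 to 7.19 RPM in AD, with a median of 2.33. The AD values covered the whole WT range, and the log2 fold change was 0.50 with a standard error of 0.32 (edgeR quasi-likelihood test, adjusted p = 0.540). Of its 127 distinct sequences 5 were tested, and all 5 had positive log2 fold changes, from 0.21 to 0.97, and 0 passed by edgeR (0 at an unadjusted p under 0.05). These 5 overlap, with starts at nt 1 or 2 and lengths of 29 to 39 nt. Over all 16351 tested sequences of 15 to 40 nt the median log2 fold change was likewise positive, at 0.23.

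In traditional-seq no member differed detectably between genotypes. Snord116 ranged from 30.9 to 107 RPM in WT (median 68.8) and from 44.9 to 88.1 RPM in AD (median 53.1). Snord64 ranged from 16.3 to 101 RPM in WT (median 74.2) and from 40.2 to 89.7 RPM in AD (median 57.0). Snord107 ranged from 1.103 to 6.97 RPM in WT (median 3.97) and from 2.05 to 6.06 RPM in AD (median 3.55). For each family the AD values lay within the WT range. The log2 fold changes were -0.13 (SE 0.29) for Snord116, -0.01 (SE 0.36) for Snord64 and 0.18 (SE 0.41) for Snord107, each with an adjusted p of 0.994 by edgeR. Over all features 0 of 652 passed by edgeR's quasi-likelihood test, with 9 at an unadjusted p under 0.05, and 0 passed by DESeq2. Of the 13 Snord116, 14 Snord64 and 1 Snord107 sequences tested, 0 passed, with 0 at an unadjusted p under 0.05, and 0 passed by edgeR's likelihood ratio test. Over the whole reference 0 of 4105 sequences passed by either test, with 26 at an unadjusted p under 0.05 by the quasi-likelihood test.

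The genotype effect was also compared between the protocols. For Snord116 the effect in PANDORA-seq minus that in traditional-seq was -1.40 with a standard error of 0.54 on the log2 scale (edgeR interaction, unadjusted p = 0.0129, adjusted p = 0.846). Of the 1181 features, 0 passed this test by edgeR and 45 had an unadjusted p under 0.05. With reads of 15 to 40 nt, a range both protocols hold, the difference was 0.44 (edgeR adjusted p = 0.998). An effect that differs between the protocols was thus not shown for Snord116, nor for Snord64 (-0.09, edgeR adjusted p = 0.996) or Snord107 (0.38, edgeR adjusted p = 0.996).

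Between the protocols themselves the families moved in different directions. Scaled by library size and with all libraries taken as independent, Snord116 was 5.07-fold higher in PANDORA-seq (log2 fold change 2.34, SE 0.31, edgeR adjusted p = 7.12e-09). Snord64 was 3.38-fold lower (-1.76, SE 0.29, edgeR adjusted p = 5.53e-07). Snord107 did not pass (-0.54, SE 0.30, edgeR adjusted p = 0.0914). Of all 1028 features, 45.6% were higher and 42.7% lower in PANDORA-seq, so being called in either direction was common. With the 14 shared file-name codes as a block, the log2 fold changes were 2.26 for Snord116 (edgeR adjusted p = 1.06e-06), -1.77 for Snord64 (edgeR adjusted p = 7.45e-06) and -0.55 for Snord107 (edgeR adjusted p = 0.133). TMM scaling moved the median of all features from 0.23 to 0.98, and under that scaling Snord116 was at 3.08, Snord64 at -0.98 and Snord107 at 0.18, on the other side of 0 from its value with library size. Over reads of 15 to 40 nt, Snord116 turned to -0.51 (edgeR adjusted p = 0.0533) while Snord64 stayed lower at -1.91 (edgeR adjusted p = 1.99e-07).

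Per kilobase of gene length, the order of the families also differed between the protocols. In PANDORA-seq Snord116 had 3894 ± 2853 RPM per kilobase (SD, n = 16), Snord64 280.03 ± 142 and Snord107 39.2 ± 25.7. In traditional-seq Snord64 had 947 ± 391 RPM per kilobase (SD, n = 14), Snord116 658 ± 257 and Snord107 56.1 ± 26.6. The ranges of Snord64 (243 to 1502) and Snord116 (329 to 1140) overlapped in traditional-seq, and Snord107 was below both in every library of this protocol. The Snord116 value sums reads over all copies of the family.

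Reads started and ended at different bases in the 2 protocols. In PANDORA-seq, 47.6% ± 16.5 (SD, n = 16) of the Snord116 reads started at nt 2 and 41.8% ± 12.7 ended at nt 45, one base past the inner CTGA at nt 41 to 44. In traditional-seq, 53.5% ± 7.29 (SD, n = 14) ended at nt 94, the last base of the gene, and the most common starts were nt 77 to 80. Reads that started within 5 nt of the first base made up 62.04% ± 15.8 of Snord116 in PANDORA-seq, from 26.1 to 77.8%, and 3.84% ± 2.64 in traditional-seq, from 1.099 to 10.4%. All 16 PANDORA-seq libraries were above every traditional-seq library (permutation test with 100000 shuffles, two-sided, p = 2e-05, which is the lowest value it can reach). Over reads of 15 to 40 nt the shares were 4.61% and 3.64% (permutation test, p = 0.289), so this difference rested on lengths that traditional-seq files hold little or nothing of. The leading traditional-seq fragment was the 3′ end of the gene, with 1.76 to 18.4 RPM in its 14 libraries and 1 read in all of PANDORA-seq.

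Snord116 nt 80 to 94, 15 nt: tcggaaCTGAggtcc

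The start of the reads also differed for the single-copy genes. For Snord64, reads that started within 5 nt of the first base were 71.6% ± 5.13 (SD, n = 16) of the family in PANDORA-seq and 39.0% ± 13.4 (SD, n = 14) in traditional-seq, with a p of 2e-05 in the permutation test. For Snord107 the share was lower in PANDORA-seq, at 90.5% ± 5.92 against 98.7% ± 2.45 (permutation test, p = 2e-05). Both protocols held a 3′ fragment of Snord64 among their 5 leading reads, nt 34 to 64 in traditional-seq (11.8 RPM) and the 1 base shorter nt 34 to 63 in PANDORA-seq (0.862 RPM). Reads of the 3′ side of Snord64 (start at nt 29 to 36, end at nt 60 to 67) had a mean of 36.9 ± 19.8 RPM (SD, n = 14) in traditional-seq and 4.29 ± 3.07 RPM (SD, n = 16) in PANDORA-seq.

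For Snord64 and Snord107 the 5′ fragments that ended next to the inner CTGA ended at different bases in the protocols. The description covers reads that start in the first 6 bases, was made after the values were seen and has no test. The leading fragments of each gene are shown, up to 2 for a protocol, with the box motifs in capitals. The most frequent Snord107 fragment of PANDORA-seq, nt 2 to 38, ended 9 bases past the inner CTGA.

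Snord64 nt 2 to 28, PANDORA-seq: gacttaTGATGAgctatgtttaCTGAg

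Snord64 nt 2 to 30, PANDORA-seq: gacttaTGATGAgctatgtttaCTGAgca

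Snord64 nt 2 to 29, traditional-seq: gacttaTGATGAgctatgtttaCTGAgc

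Snord107 nt 2 to 38, PANDORA-seq: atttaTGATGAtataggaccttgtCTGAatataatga

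Snord107 nt 2 to 30, PANDORA-seq: atttaTGATGAtataggaccttgtCTGAa

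Snord107 nt 1 to 31, traditional-seq: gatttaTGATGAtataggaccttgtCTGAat

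In traditional-seq, 73.0% ± 7.60 (SD, n = 14) of these Snord64 reads ended 2 bases past the inner CTGA, from 55.6 to 86.4%. In PANDORA-seq only 0.859% ± 0.564 (SD, n = 16) ended there, at most 2.54% in any library. The PANDORA-seq reads ended 1 base past it (25.4% ± 6.71) or 3 bases past it (27.8% ± 11.6), positions that held 0.727% and 0.353% of the traditional-seq reads. For Snord107 in traditional-seq 78.3% ± 10.04 of its 5′ reads ended 2 bases past the inner CTGA, from 58.3 to 91.1%, and in PANDORA-seq 1.12% ± 1.28 did, at most 4.81%. The PANDORA-seq reads of Snord107 ended 1 base past it in 27.8% ± 8.32 and 3 bases past it in 14.2% ± 6.94, and 43.3% ± 14.2 ended 0 to 3 bases past it. These shares rest on 18015 and 3701 reads of Snord64 and on 3253 and 634 reads of Snord107, in PANDORA-seq and traditional-seq respectively. The Snord116 reads of this kind in PANDORA-seq ended 0 to 3 bases past the inner CTGA in 98.3% ± 0.414 of WT and 94.4% ± 2.57 of AD reads (SD, n = 8 each). These Snord116 ends lie close to the limit of 45 nt of the PANDORA-seq files, so reads that ran further past the CTGA could not be counted. The protocols differ in enzyme treatment and in the read lengths their files hold, and the part of each in these ends was not tested.

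**Figure D4:**
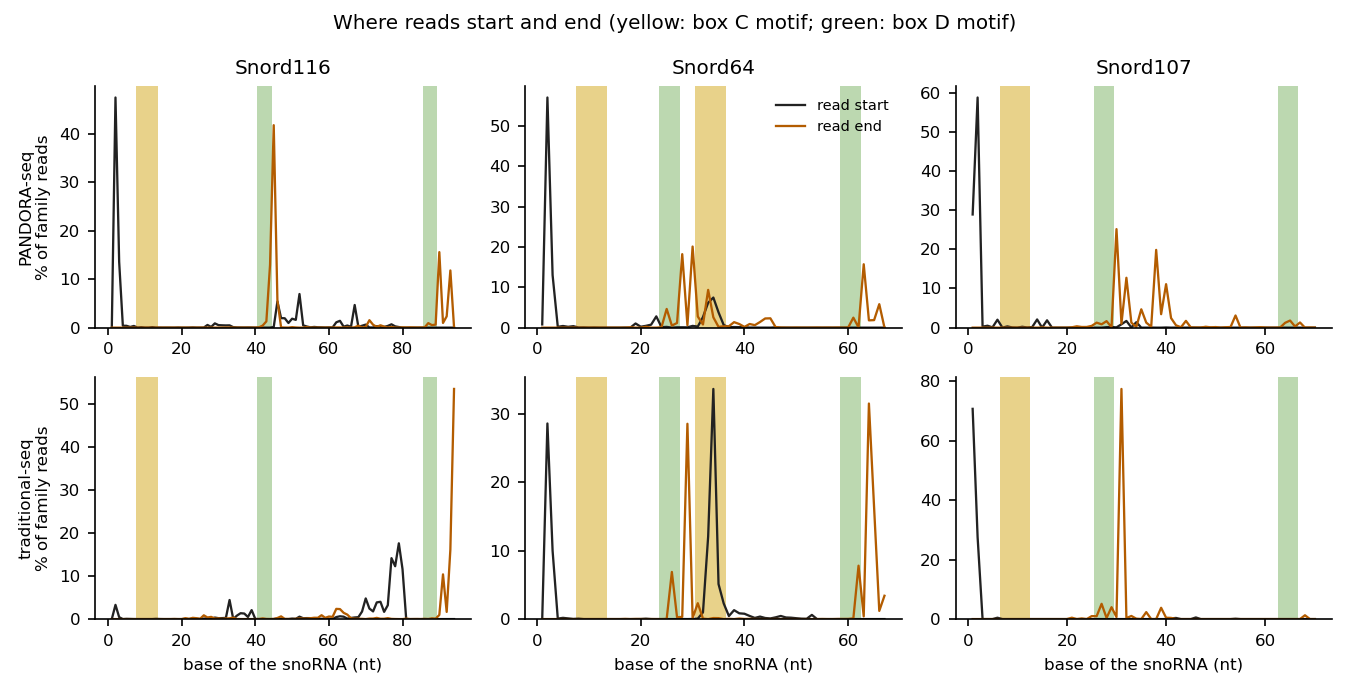
Share of each family's reads (vertical axis, %) that start (black) or end (orange) at each base of the snoRNA (horizontal axis, nt), as the mean over 16 PANDORA-seq and 14 traditional-seq libraries; yellow and green bands mark the box C and box D motifs. In PANDORA-seq 41.8% of Snord116 reads end at nt 45, next to the inner green band, and in traditional-seq 53.5% end at nt 94.

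A second snoRNA array of the same locus, for which the reference gives no family symbol, was set beside the members. It has 137 genes at chr7:59342226-59619095 with 57 distinct sequences, and 33 genes share the one shown. Snord115 is known for a stretch complementary to the mRNA of the serotonin receptor gene Htr2c, so the longest run complementary to any of 7 Htr2c transcripts was searched. It was 18 nt long, is in capitals, and occurred in 105 of the 137 genes and in 0 snoRNA-type genes outside the array. The longest such run in Snord116 was 11 nt.

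Gm22449, 79 nt: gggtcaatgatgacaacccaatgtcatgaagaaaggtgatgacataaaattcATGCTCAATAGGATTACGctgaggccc

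This array differed between the genotypes in PANDORA-seq as Snord116 did. WT libraries ranged from 537 to 1350 RPM with a median of 869, and AD libraries from 48.2 to 448 RPM with a median of 268. All 8 AD libraries lay below every WT library, a pattern found in 2 of 1054 features (0.19%). The log2 fold change was -1.82 with a standard error of 0.29 (edgeR, adjusted p = 0.00227). Over reads of 15 to 40 nt it was 0.39 (edgeR adjusted p = 0.761). In reads of 43 to 45 nt scaled by the reads of that length, where Snord116 did not pass, the array was lower at -2.47 (edgeR adjusted p = 0.000369), beside 75 of 323 features lower (23.2%) and 51 higher (15.8%). In traditional-seq its log2 fold change was 0.12 (edgeR adjusted p = 0.994). The 54 unnamed Snord116-like genes of the locus, over reads that fit no member, were lower in AD in PANDORA-seq (-1.28, edgeR adjusted p = 0.00763). With library size in place of TMM neither group passed, with adjusted p values of 0.0563 for the array and 0.138 for the Snord116-like genes by edgeR. Over reads of 15 to 40 nt the Snord116-like genes were at 0.12 (edgeR adjusted p = 0.953).

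Snord116 and these 2 groups were among the 6 features lower in AD, and the other three were the unnamed snoRNA gene Gm24494, Mir1291 and Snord12. Gm24494 fell from a mean of 118 RPM to 28.1 RPM and Snord12 from 63.6 to 23.1 RPM. The features whose levels ranked most like Snord116 over the 16 PANDORA-seq libraries were the unnamed Snord116-like genes (Spearman rho 0.974), the 79-nt array (0.947) and Gm24494 (0.850), out of 1053. Over the 14 traditional-seq libraries they were the array (0.934), the miRNA gene Gm22369 (0.930) and the mitochondrial tRNA gene mt-Tm (0.877), out of 651. Snord64 and Snord107 had a rho of 0.697 with each other in PANDORA-seq and 0.873 in traditional-seq. With Snord116 they had 0.441 and 0.06 in PANDORA-seq and 0.235 and 0.209 in traditional-seq. The unnamed Snord116-like genes, with 701 reads in traditional-seq, had a rho of only 0.244 with Snord116 there. All these levels were scaled by the same library totals, and in PANDORA-seq both genotypes were pooled.

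Other snoRNAs gave few calls between the genotypes. Of the 23 snoRNA genes of the imprinted Dlk1-Dio3 locus on chromosome 12, 14 were tested in PANDORA-seq and 0 passed by edgeR (3 at an unadjusted p under 0.05), with a median log2 fold change of -0.17 beside 0.04 over all features. Of these, Gm23736 (190.7 RPM in WT and 175 RPM in AD) and DQ267100 (67.8 and 86.2 RPM) had the most reads. Of 79 other Snord genes 76 were tested, 1 (Snord12) was lower and 0 were higher (12 at an unadjusted p under 0.05, beside 129 of all 1054 features), with a median of -0.07. Snord90 (312 and 257 RPM) and Snord14c (235 and 264 RPM) had the most reads of this list. Of 49 Snora and Scarna genes, 45 were tested and 0 passed by edgeR (5 at an unadjusted p under 0.05), with a median of -0.02, and Snora7a (184 and 160.3 RPM) and Scarna10 (72.4 and 47.3 RPM) led. In traditional-seq 0 genes of these lists passed by edgeR, with 1 at an unadjusted p under 0.05, and the most read were AF357425 and AF357428, Snord85 and Snord43, and Snora41 and Snora3. In reads of 43 to 45 nt scaled by the reads of that length, 6 of 8 tested Dlk1-Dio3 snoRNAs were lower in AD and 0 higher. Of the other Snord genes 18 of 66 were lower and 7 higher, and of the Snora and Scarna genes 6 of 25 were lower and 4 higher, beside 23.2% lower and 15.8% higher over all features. Scaled by all reads, 8 of 8, 51 of 64 and 17 of 23 were lower and 0 higher, beside 70.3% lower over all features.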

How the data were processed

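The authors deposited, for each of 30 libraries, the count of reads of each distinct adapter-trimmed sequence, without normalization, coordinates or annotation. The labels name mm39, and coordinates here are those of GENCODE vM21 (GRCm38). Members and lists were chosen with earlier results of these data known. Whole sequences of 15 to 45 nt were matched exactly to small RNA genes of the annotation by a program compiled with g++ 11.4.0, which was tested on simulated reads. RPM is the read count scaled to a library total of 1000000. Counts per feature and per sequence were fitted with edgeR 4.0.16 in R 4.3.3 (filterByExpr with smallest count 10 and total 15, TMM within a protocol, library size between protocols, quasi-likelihood test, Benjamini-Hochberg adjustment over all features). Sequences were called where the adjusted p was under 0.05 and the level differed by more than 2-fold. On simulated counts, 184 of 188 features changed 4-fold were called in PANDORA-seq and 177 of 182 in traditional-seq, with 3 and 11 unchanged ones. DESeq2 1.42.0 was an alternative. Shares were compared by exact permutation over 12870 splits (smallest p 0.0001554) for features with at least 50 reads in every library, or, without that minimum (the fewest Snord107 reads in a library were 13), by 100000 shuffles, with Python 3.11.15, numpy 2.4.6 and scipy 1.17.1. Plots were drawn with matplotlib 3.10.9. Named were all members, the 5 leading and up to 5 called sequences by adjusted p of a family, the 3 features most like Snord116 and the 2 most read genes of each list. Alternatives covered test, scaling, filter, length range, mismatches, shared sequences, block and left-out libraries. The scalings of 43-to-45-nt reads, the unnamed genes of the locus as comparators and the alternatives of the interaction were added after seeing the data. No 2 libraries of a group agreed within sampling noise (smallest chi-square per degree of freedom 258).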

Additional observations from a re-analysis of the deposited data

Results flagged for a closer look

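The Snord116 level of 1 library stood apart from its group. In traditional-seq, AD replicate 7 had the highest value of the AD group, 88.1 RPM, beside a group median of 53.1 RPM and a lowest value of 44.9 RPM. Its gap to the next library exceeded Dixon's 95% critical value. Snord116, Snord64 and Snord107 were checked in each genotype and protocol, 12 groups in all, and chance marks about 1 in 20 groups.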

How the results depend on the processing

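Of 133 alternative values for the families, 109 were like the main value. That meant the same direction and side of the threshold or, for counts of called sequences, an equal or similar count. In PANDORA-seq, the log2 fold change of Snord116 between genotypes was -1.62 (adjusted p = 0.117) with library size, 0.080 over reads of 15 to 40 nt, and -1.12 (adjusted p = 0.0751) without sequences shared outside the family, and -0.65 and -0.39 at 43 to 45 nt when scaled by reads of that length and by TMM. Snord64 at 43 to 45 nt was 0.18 and 0.55 under these scalings, and the 79-nt array was 0.39 over reads of 15 to 40 nt. With each library left out, Snord116 ranged from -1.92 to -1.55 and passed in 16 of 16 fits (adjusted p from 0.00193 to 0.0474), Snord64 from -0.39 to -0.06 and Snord107 from 0.30 to 0.64. In traditional-seq Snord116 was 0.092 with at most 1 mismatch. Snord64 was 0.036 with DESeq2, 0.036 with DESeq2 size factors, 0.049 without a filter, 0.044 from 18 nt, 0.026 without shared sequences and 0.12 with at most 1 mismatch. With each library left out, Snord116 ranged from -0.24 to -7.83e-05, Snord64 from -0.17 to 0.19, Snord107 from 0.03 to 0.47 and the array from -0.023 to 0.26. Between protocols Snord116 was -0.51 over 15 to 40 nt, and Snord107 was 0.18 with TMM, 0.27 with DESeq2 and -0.67 (adjusted p = 0.0349) with at most 1 mismatch. The difference in genotype effect was 0.44 for Snord116 and 0.57 for the array over 15 to 40 nt, and -2.09 (adjusted p = 0.0471) for the array with TMM. The share of long reads of Snord64 at 43 to 45 nt differed by -5.84 percentage points (adjusted p = 0.0241), and the 5′-end share of Snord116 over 15 to 40 nt by 0.973. Of all features in PANDORA-seq, 15 were lower and 8 higher in AD with the likelihood ratio test, 15 and 11 with DESeq2, 14 and 3 without a filter, and 1 and 0 with library size, while 1 was lower and 2 higher in traditional-seq without a filter. With all sequences of at least 10 reads tested, 34 of 392 Snord116, 2 of 112 Snord64 and 206 of 1044 array sequences were lower, beside 2.7% of all. Apart from the read length and the sequences removed by construction, the cause of each change was not tested.

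Libraries with the same replicate number did not deviate together (correlations from -0.436 to 0.368 in PANDORA-seq and from -0.460 to 0.469 in traditional-seq, with 2 of 16 and 0 of 14 libraries closest to their own number), so the numbers were not taken as pairs. With the replicate number as a block, Snord116 was -1.82 (adjusted p = 0.00865) in PANDORA-seq, Snord64 was 0.21 in traditional-seq, and 1 of 22 Snord64 sequences passed beside 5.09% of all. The share of 41-to-45-nt reads was then lower in 90 of 502 features in place of 163, Snord116 included (adjusted p = 0.0436), and the share of 43-to-45-nt reads of Snord64 no longer passed (adjusted p = 0.0900).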

Other observations

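With at most 1 mismatch allowed, 75318 more reads of PANDORA-seq and 8179 of traditional-seq fit the members. In the 79-nt array, reads with the whole run complementary to Htr2c were 84.4% ± 1.53 (SD, n = 8) of its PANDORA-seq reads in WT and 68.3% ± 5.99 in AD, and in traditional-seq 8.52% ± 5.07 (SD, n = 7) in WT and 6.72% ± 3.78 (SD, n = 7) in AD. These values carry no test. The leading read of the array in PANDORA-seq, nt 32 to 75 of the sequence, ranged from 181 to 518 RPM in WT and from 2.13 to 109 RPM in AD.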
